A study of Mus musculus with 14 samples.

Results

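The levels of 10 transcripts of mammary epithelium were followed through bulk RNA sequencing of sorted mouse T cells, cells that are not known to make most of them. They were Epcam, Krt8, Krt18, Krt19, Krt5, Krt14, Elf5, Csn3, Wfdc18 and Cldn7, taken by symbol from both deposited count tables. All 10 of the 10 symbols were found in each table, among 50508 gene symbols.

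The 10 bulk libraries fell into 5 groups of 2. The first 3 groups came from mice that the labels call retrogenic, meaning mice rebuilt from bone marrow carrying a gene introduced by a retrovirus, which the labels do not name: NK1.1+ ILTCk, NK1.1- ILTCk and, as their conventional counterpart, PD1+ Tconv. ILTCk is the study's name for innate-like T cells with killer function, and Tconv its name for conventional T cells. Per the protocols, NK1.1+ ILTCk were sorted from tumours as CD45+ TCRγδ- TCRβ+ CD4- CD8α+ PD-1- NK1.1+ cells, and PD1+ Tconv as PD-1+ NK1.1- cells within the same CD8α+ gate. The cell type field names both retrogenic ILTCk groups ILTCkP, the progenitor name, while their titles say ILTCk, and the titles were followed here. The gate for NK1.1- ILTCk, the tumour model of the retrogenic mice and their age stand in none of the sources used here. The remaining groups were thymocytes of C57BL/6 mice, ILTCkP (progenitors of ILTCk) and CD8SP (CD8 single-positive cells). The labels call the 2 libraries of a group biological replicates but name no separate animals. A p-value here covers the spread between these libraries, which may be technical. The 4 single-cell samples from breast and prostate tumours were not analysed here.

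The mammary gland is a tree of ducts with an inner layer of luminal cells and an outer layer of contractile basal cells. Luminal cells carry the keratin pair Krt8 and Krt18 with Krt19, the adhesion protein Epcam and the tight junction protein Cldn7, while basal cells carry the pair Krt5 and Krt14. Elf5 is the ETS family transcription factor of luminal alveolar cells, and Csn3 and Wfdc18 are secreted products of alveolar cells. Salivary and lacrimal glands share many of these keratins and adhesion genes, so none of them marks the breast alone.

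Promoter windows from RefSeq on GRCm38.p6, running from 250 bases before to 50 bases after the start of the gene, were found for 8 of the 10 genes. They are shown for the luminal pair Krt8 and Krt18, whose levels followed each other in all 6 retrogenic libraries, for Krt5, whose levels did not, and for Wfdc18, which had the highest level per kilobase. Krt8 (chr15:102004293-102004592, minus strand) and Krt18 (chr15:102027966-102028265, plus strand) lie on the same chromosome and are transcribed away from each other, and Krt5 (chr15:101712856-101713155, minus strand) lies on that chromosome too. Wfdc18 has its window at chr11:83708754-83709053 on the plus strand. Capitals mark GGAAG, the core letters of ETS family sites, and TATAAA, the letters of a TATA box, each on either strand.
Krt8: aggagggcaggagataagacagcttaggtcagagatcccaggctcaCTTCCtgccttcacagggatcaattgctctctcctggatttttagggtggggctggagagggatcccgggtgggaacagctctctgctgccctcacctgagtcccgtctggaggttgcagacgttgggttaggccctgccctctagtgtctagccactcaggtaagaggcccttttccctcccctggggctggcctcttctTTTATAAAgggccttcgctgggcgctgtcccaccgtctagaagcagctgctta
Krt18: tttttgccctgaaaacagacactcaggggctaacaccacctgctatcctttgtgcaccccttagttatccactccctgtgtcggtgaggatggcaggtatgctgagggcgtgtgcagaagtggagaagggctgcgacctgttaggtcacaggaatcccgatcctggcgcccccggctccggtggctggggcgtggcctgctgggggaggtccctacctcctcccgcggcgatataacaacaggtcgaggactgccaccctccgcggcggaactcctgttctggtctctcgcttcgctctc
Krt5: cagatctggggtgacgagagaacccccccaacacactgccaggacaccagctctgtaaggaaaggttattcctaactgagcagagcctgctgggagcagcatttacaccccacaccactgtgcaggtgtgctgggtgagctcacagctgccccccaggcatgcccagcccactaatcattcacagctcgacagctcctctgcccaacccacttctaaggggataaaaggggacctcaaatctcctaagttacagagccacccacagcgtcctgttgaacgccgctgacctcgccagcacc
Wfdc18: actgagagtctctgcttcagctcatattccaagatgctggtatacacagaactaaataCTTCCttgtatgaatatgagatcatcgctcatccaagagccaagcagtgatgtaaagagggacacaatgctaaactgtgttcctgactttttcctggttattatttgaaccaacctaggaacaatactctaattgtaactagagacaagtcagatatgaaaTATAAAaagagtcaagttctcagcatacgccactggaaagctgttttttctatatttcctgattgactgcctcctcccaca

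GGAAG stood in 5 of the 8 windows, those of Epcam, Krt8, Elf5, Wfdc18 and Cldn7, and in 71.4% of all 32851 mouse windows of the same length. TATAAA stood in the windows of Krt8 and Wfdc18, 2 of 8, and in 13.6% of all windows. In Krt8 it was matched on both strands at overlapping positions, with first bases at -3 and -1 relative to the start of the gene. In Wfdc18 its first base was at -31. Whether these matches act as a TATA box was not tested. TTCNNNGAA, the letters of a STAT site, stood in 1 of 8, that of Cldn7, and in 8.30% of all windows. Neither Krt18 nor Krt5 held any of the 3 motifs, which says only that these letters are not in these windows.

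The deposited values were read counts, with totals from 16530085 to 32097301 per library. Levels below are CPM, the field's depth-normalised read count, scaled by TMM, a normalization computed within each table. The T cell markers (11 genes such as Cd3e and Trac) were detected in every library, summing to 956 to 4698 CPM in NK1.1+ ILTCk, 1795 to 2563 CPM in NK1.1- ILTCk, 5325 to 7728 CPM in PD1+ Tconv, 8865 to 9330.2 CPM in ILTCkP and 13189 to 14628 CPM in CD8SP. PD1+ Tconv replicate 2 stood apart: 12 salivary and lacrimal gland genes summed to 300079 CPM there, against 1569 CPM in the other PD1+ Tconv library. They held 22.4% of the total count of replicate 2, whose TMM factor of 0.748 raised all its levels. Overlaps below are on the TMM scale. Some are absent on CPM of the total count, among them those of Epcam, Krt18 and Elf5 between NK1.1+ ILTCk and PD1+ Tconv. The gland sum was 1379 to 11309 CPM in NK1.1+ ILTCk, 10497 to 44834 CPM in NK1.1- ILTCk and at most 0.241 CPM in the thymic libraries, with 1 of the 12 genes at 0 in each retrogenic library. Different genes made up most of these sums. Pip had 10499 CPM in NK1.1+ ILTCk replicate 2 and 8215 CPM in NK1.1- ILTCk replicate 2. Bpifa2 had 34765.5 CPM in NK1.1- ILTCk replicate 1 and 260889 CPM in PD1+ Tconv replicate 2. The fold changes against PD1+ Tconv, and the counts and medians over gene lists, are therefore given with and without that library.

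All 10 epithelial genes were detected in all 6 retrogenic libraries, and they took 0.318 to 1.52% of the counts there. Their summed level was 8482 and 9290 CPM in NK1.1+ ILTCk, 12597 and 13153 CPM in NK1.1- ILTCk, and 2842 and 5493 CPM in PD1+ Tconv. In the thymic libraries it was 4.37 and 7.39 CPM in ILTCkP, and 2.28 and 1.74 CPM in CD8SP. The order was therefore NK1.1- ILTCk, NK1.1+ ILTCk, PD1+ Tconv, ILTCkP and CD8SP, with no overlap between neighbouring groups, and without PD1+ Tconv replicate 2 that group is left with 2842 CPM and the same place. The gap between NK1.1+ ILTCk and PD1+ Tconv rested on Csn3, with 4227 and 4152 CPM against 1567 and 425 CPM. With Csn3 left out, the sum of NK1.1+ ILTCk replicate 1 lay below that of PD1+ Tconv replicate 2. An exact permutation test of 2 against 2 libraries cannot go below p = 0.33, so no test was made of the sums, and the 2 tables were normalised separately. In bulk libraries, fewer cells of a type and less RNA per cell cannot be told apart.

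Set against the T cell markers, the epithelial sum was highest in the ILTCk libraries. Divided by the T cell sum, with neither sum corrected for length, it was 1.81 and 9.71 for the NK1.1+ ILTCk libraries, 4.91 and 7.33 for the NK1.1- ILTCk libraries, and 0.368 and 1.03 for the PD1+ Tconv libraries. The sorts required CD45 and TCRβ on the cell surface, per the protocols, for the NK1.1+ ILTCk and PD1+ Tconv groups. Markers of macrophages also differed between the groups, their 10-gene sum being 6505 to 18564 CPM in NK1.1+ ILTCk, 2979 to 3021 CPM in NK1.1- ILTCk and 149 to 999 CPM in PD1+ Tconv. The part of other cell types in the epithelial levels was not tested.

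**Figure D1:**
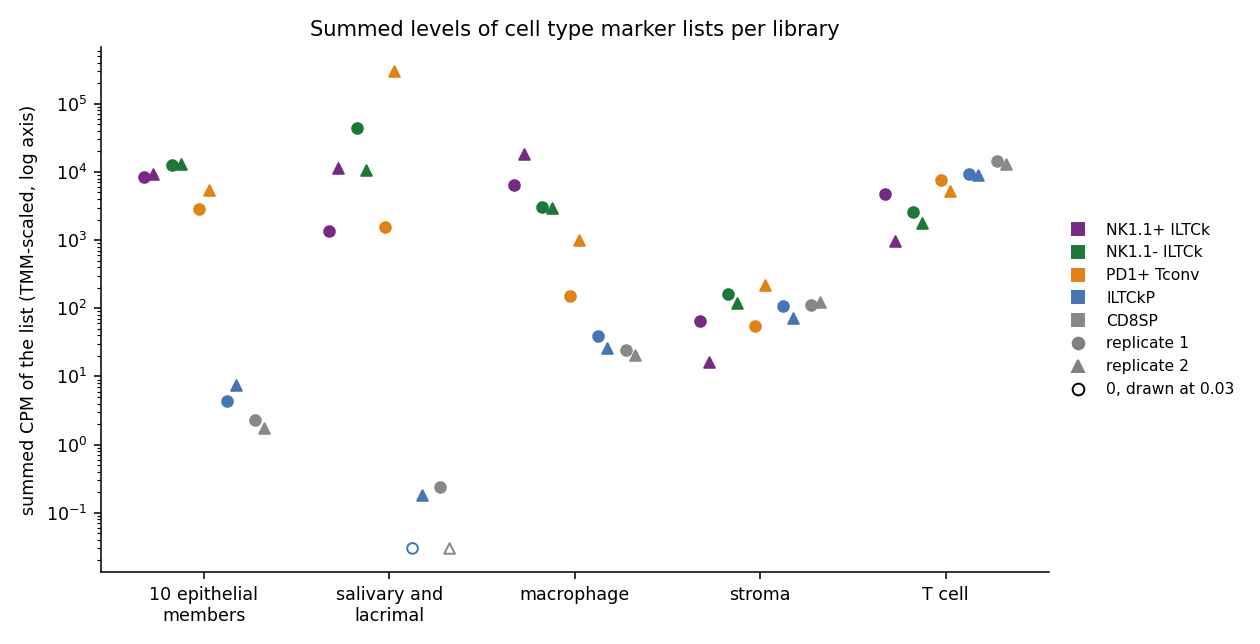
Summed level of the 10 epithelial genes and of 4 marker lists in each of the 10 libraries, in TMM-scaled CPM on a log axis; circles are replicate 1 and triangles replicate 2, open symbols stand for a sum of 0, and colours mark the groups. The epithelial genes sit between 2842 and 13153 CPM in the retrogenic libraries and between 1.74 and 7.39 CPM in the thymic ones, while the gland genes reach 300079 CPM in 1 PD1+ Tconv library.

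Among the luminal genes, Krt8, the type II keratin of simple epithelia, had 519 and 694 CPM in NK1.1+ ILTCk, 789 and 823 CPM in NK1.1- ILTCk, and 144 and 435 CPM in PD1+ Tconv. Krt18, its type I partner, had 456 and 706 CPM in NK1.1+ ILTCk, 677 and 1109 CPM in NK1.1- ILTCk, and 144 and 484 CPM in PD1+ Tconv. For Krt8 neither ILTCk group overlapped PD1+ Tconv, and for Krt18 replicate 1 of NK1.1+ ILTCk lay below replicate 2 of PD1+ Tconv. Keratins assemble as pairs of one type I and one type II chain, and the level of Krt8 per kilobase divided by that of Krt18 was 0.545 to 0.856 over the 6 libraries.

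Epcam, a homophilic adhesion protein of most simple epithelia, had 418 and 592 CPM in NK1.1+ ILTCk, 723 and 1105 CPM in NK1.1- ILTCk, and 169 and 501 CPM in PD1+ Tconv. The 2 NK1.1- ILTCk libraries were the highest, and the other 2 groups overlapped. Cldn7, a claudin that binds Epcam, had 73.3 and 202 CPM in NK1.1+ ILTCk, 145 and 198 CPM in NK1.1- ILTCk, and 28.7 and 154 CPM in PD1+ Tconv. Krt19, the smallest type I keratin, had 283 and 327 CPM in NK1.1+ ILTCk, 129 and 390.2 CPM in NK1.1- ILTCk, and 25.9 and 268 CPM in PD1+ Tconv. Krt19 thus lay above both PD1+ Tconv libraries in NK1.1+ ILTCk and overlapped them in NK1.1- ILTCk.

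The basal keratins were low and uneven. Krt5, the type II keratin of basal layers, had 41.5 and 1.44 CPM in NK1.1+ ILTCk, 98.0 and 46.3 CPM in NK1.1- ILTCk, and 14.9 and 2.27 CPM in PD1+ Tconv, a 67.8-fold span from the lowest to the highest library. Krt14, its type I partner, had 15.0 and 22.4 CPM in NK1.1+ ILTCk, 29.1 and 81.9 CPM in NK1.1- ILTCk, and 10.1 and 25.7 CPM in PD1+ Tconv, a span of 8.09-fold. For both genes the 2 NK1.1- ILTCk libraries were the highest of the 6. The level of Krt5 per kilobase divided by that of Krt14 ranged from 0.0498 to 2.61, so this pair did not keep the ratio that Krt8 and Krt18 kept. Krt6a, Krt16 and Krt17, keratins with sequence close to the basal pair, had 0 to 118, 2 to 68 and 203 to 1205 counts in these libraries, so reads shared between them could move the Krt5 and Krt14 counts, and how shared reads were counted is not given in the sources used here. Krt8 likewise has a pseudogene, Krt8-ps, which held 12 to 107 counts against 4521 to 26716 for Krt8.

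Elf5 varied least, with 25.4 and 40.7 CPM in NK1.1+ ILTCk, 28.5 and 49.6 CPM in NK1.1- ILTCk, and 18.5 and 37.9 CPM in PD1+ Tconv, and its span over the 6 libraries was 2.67-fold. All 3 groups overlapped. The secreted products were the most abundant per kilobase of transcript. Csn3, the kappa-casein that holds milk micelles in solution, had 4227 and 4152 CPM in NK1.1+ ILTCk, 7260.3 and 2295 CPM in NK1.1- ILTCk, and 1567 and 425 CPM in PD1+ Tconv, with all 4 ILTCk libraries above both PD1+ Tconv libraries. Wfdc18, a small secreted protein with a whey acidic protein domain, had 2423 and 2552 CPM in NK1.1+ ILTCk, 2717 and 7056 CPM in NK1.1- ILTCk, and 720.1 and 3160.4 CPM in PD1+ Tconv, with overlap between PD1+ Tconv and each ILTCk group.

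On a scale of CPM per kilobase of transcript, averaged over the 6 libraries, the level was 5959 for Wfdc18, 2640 for Csn3, 415 for Krt18, 309 for Epcam, 290 for Krt8, 151 for Krt19 and 119 for Cldn7. Krt14, Krt5 and Elf5 followed with 18.1, 15.5 and 15.1 CPM per kilobase. The ranges over the 6 libraries overlapped between all neighbours in this order.

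**Figure D2:**
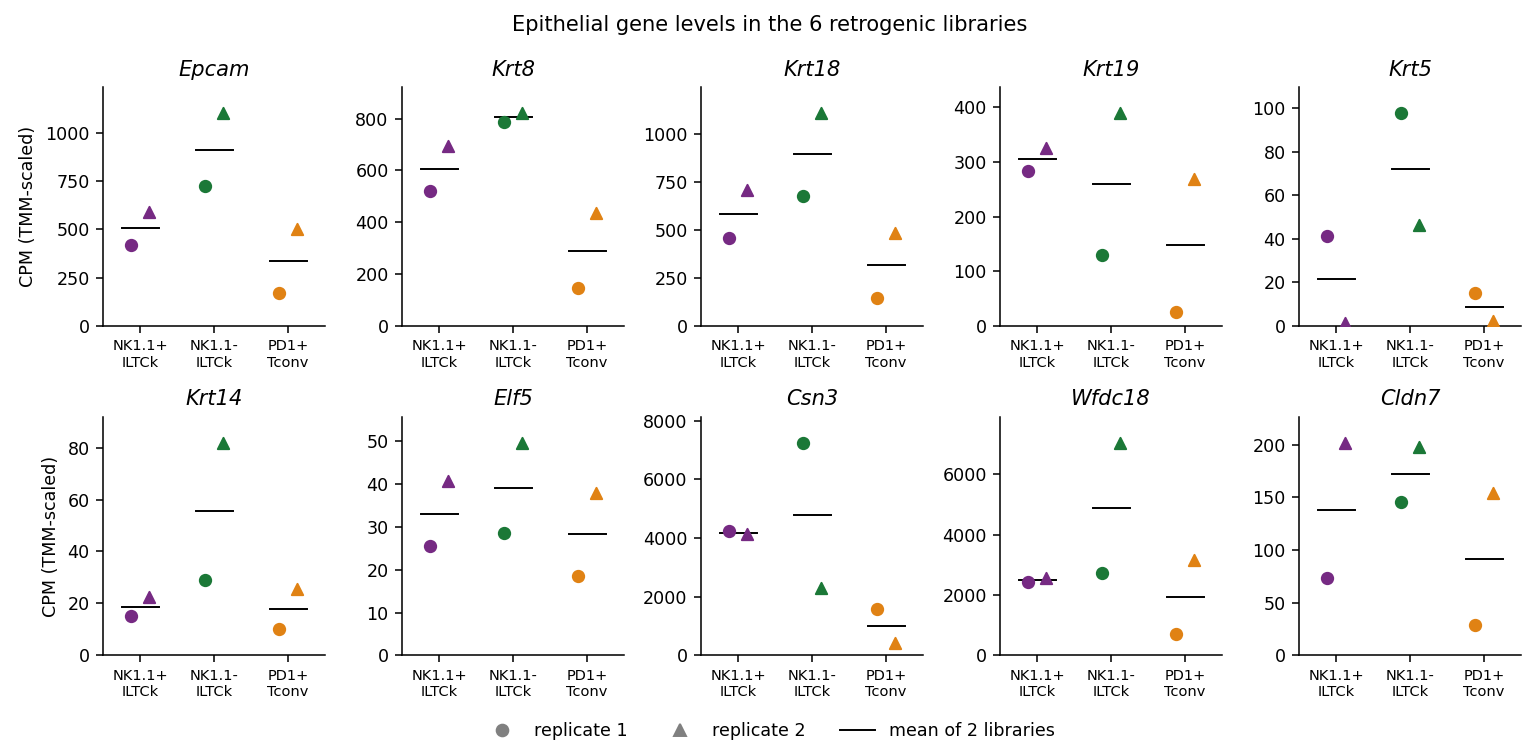
Level of each of the 10 epithelial genes in TMM-scaled CPM, one panel per gene with its own axis from 0, in the 2 libraries of each of NK1.1+ ILTCk, NK1.1- ILTCk and then PD1+ Tconv; lines are the mean of 2 libraries. Csn3 in all 4 ILTCk libraries (2295 to 7260.3 CPM) lies above PD1+ Tconv (425 and 1567 CPM), while Elf5 overlaps in all groups.

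NK1.1- ILTCk were set against PD1+ Tconv with edgeR's quasi-likelihood test over all 18091 genes that passed the filter on low counts, calling a gene at a Benjamini-Hochberg adjusted p under 0.05. All 10 epithelial genes passed the filter and had positive log2 fold changes, with a median of 1.46 against -0.04 over all genes tested. None was called, and edgeR called 0 of all genes (0%), with 2147 (11.9%) at an unadjusted p under 0.05. Both NK1.1- ILTCk libraries lay above both PD1+ Tconv libraries for 6 of the 10, namely Epcam, Krt8, Krt18, Krt5, Krt14 and Csn3, and for 23.1% of all genes tested. An unadjusted p under 0.05 with a positive change was found for 4 of the 10 and for 5.96% of all genes. DESeq2 called 707 genes (3.91%) but none of the 10.

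Csn3 averaged 4777 ± 3511 CPM in NK1.1- ILTCk and 996 ± 807 CPM in PD1+ Tconv (SD, n = 2 each), a log2 fold change of 2.26 ± 0.83 (SE) with an edgeR adjusted p of 0.389 and a DESeq2 adjusted p of 0.0564. Krt8 averaged 806 ± 23.9 CPM in NK1.1- ILTCk and 289 ± 205 CPM in PD1+ Tconv, a log2 fold change of 1.48 ± 0.59 with an edgeR adjusted p of 0.403. Epcam and Krt18 had log2 fold changes of 1.45 ± 0.61 and 1.51 ± 0.66. Krt5 and Krt14 had 3.06 ± 1.45 and 1.64 ± 0.66. The values that overlapped were 0.82 ± 0.99 for Krt19, 0.47 ± 0.52 for Elf5, 1.33 ± 0.81 for Wfdc18 and 0.91 ± 0.81 for Cldn7. Without PD1+ Tconv replicate 2, the library with the gland genes, all 10 log2 fold changes were positive, from 1.06 for Elf5 to 3.31 for Krt19, with a median of 2.45 against 0.07 over 19503 genes tested. In that setting, chosen after seeing the data, both NK1.1- ILTCk libraries lay above the lone PD1+ Tconv library for 10 of the 10 and for 41.3% of all genes. Without PD1+ Tconv replicate 1 they ran from -0.03 for Krt19 to 5.01 for Krt5, and in neither case was any of the 10 called.

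NK1.1+ ILTCk were compared with the same PD1+ Tconv libraries, so the 2 comparisons share them. The 10 log2 fold changes were again positive, with a median of 0.74 against -0.04 over all genes, and edgeR called none of the 10 and 0 of all genes (0%). Over all genes 2590 (14.3%) had an unadjusted p under 0.05, and DESeq2 called 1268 (7.01%), none of them among the 10. Both NK1.1+ ILTCk libraries lay above both PD1+ Tconv libraries for Krt8, Krt19 and Csn3, 3 of the 10 against 20.7% of all genes. An unadjusted p under 0.05 with a positive change was found for Csn3 alone, 1 of 10 against 6.98%. Csn3 averaged 4189.6 ± 52.8 CPM in NK1.1+ ILTCk and 996 ± 807 CPM in PD1+ Tconv (SD, n = 2 each), a log2 fold change of 2.07 ± 0.82 with an edgeR adjusted p of 0.325. Krt8 and Krt19 had 1.07 ± 0.58 and 1.05 ± 0.99. The lowest of the 10 was Krt14, with 0.07 ± 0.65. Without PD1+ Tconv replicate 2 the log2 fold changes were 0.50 for Krt5 to 3.53 for Krt19, with a median of 1.65 against 0.05 over all genes. Both NK1.1+ ILTCk libraries then lay above the lone PD1+ Tconv library for 9 of the 10 and for 38.5% of all genes. Without PD1+ Tconv replicate 1 they were -0.44 for Krt14 to 3.32 for Csn3, and 4 of the 10 turned negative.

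NK1.1+ ILTCk against NK1.1- ILTCk gave 9 negative log2 fold changes of 10, with a median of -0.51 against 0.01 over all genes. Krt19 was the exception with 0.23 ± 0.98. Neither edgeR, with 0 calls (0%) over all genes and 712 (3.94%) at an unadjusted p under 0.05, nor DESeq2, with 57 calls (0.315%), called any of the 10. Both NK1.1+ ILTCk libraries lay below both NK1.1- ILTCk libraries for Epcam, Krt8, Krt5, Krt14 and Wfdc18, 5 of the 10 against 18.9% of all genes. Krt14 averaged 18.7 ± 5.24 CPM in NK1.1+ ILTCk and 55.5 ± 37.4 CPM in NK1.1- ILTCk (SD, n = 2 each), a log2 fold change of -1.57 ± 0.66. Epcam averaged 505 ± 123 CPM in NK1.1+ ILTCk and 914 ± 269.9 CPM in NK1.1- ILTCk, a log2 fold change of -0.86 ± 0.60. The smallest difference was that of Csn3, with -0.19 ± 0.79. The standard errors were 0.51 to 1.37 on the log2 scale and exceeded the difference itself for 6 of the 10.

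**Figure D3:**
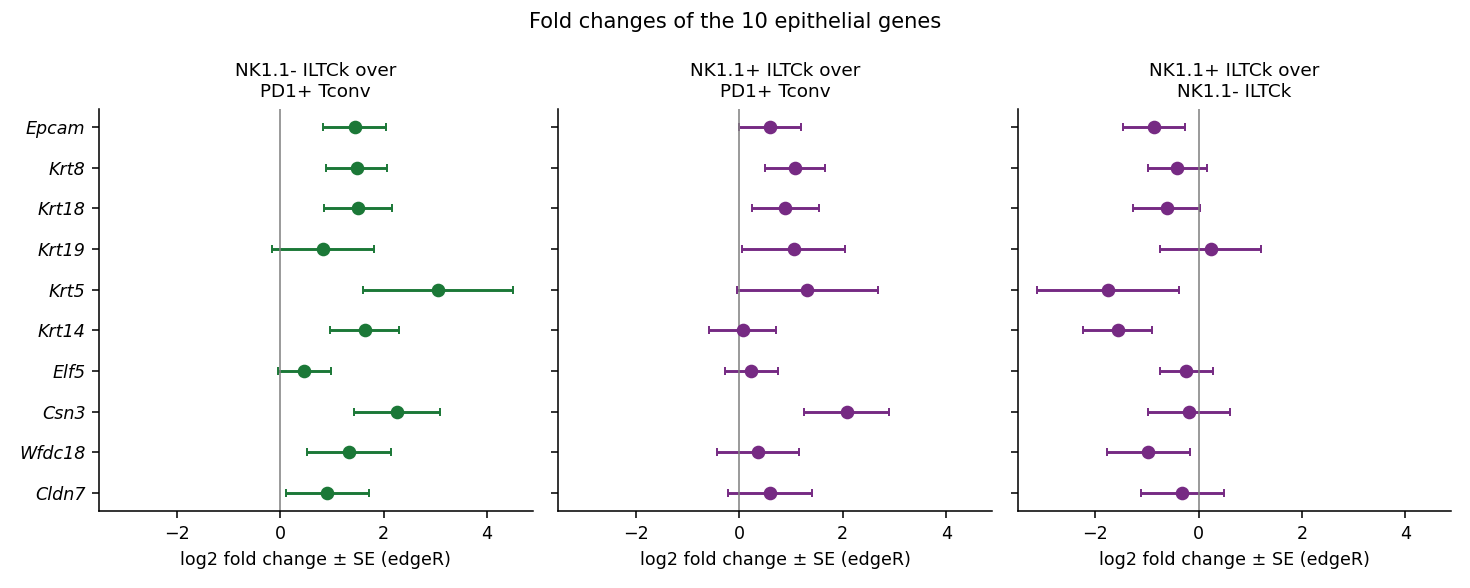
Log2 fold change of the 10 epithelial genes with its standard error from edgeR, in 3 panels for NK1.1- ILTCk over PD1+ Tconv, NK1.1+ ILTCk over PD1+ Tconv and NK1.1+ ILTCk over NK1.1- ILTCk; the grey line is no difference. All 10 points lie right of the line in the panels against PD1+ Tconv (medians 1.46 and 0.74), and 9 of 10 lie left of it between the ILTCk groups (median -0.51).

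The mixture of epithelial transcripts differed between libraries of one group. As a share of the counts of the 10 genes, not corrected for length, Csn3 took 49.8 and 44.7% of the NK1.1+ ILTCk libraries, 57.6 and 17.4% of the NK1.1- ILTCk libraries, and 55.1 and 7.74% of the PD1+ Tconv libraries. Wfdc18 took 28.6 and 27.5% of the NK1.1+ ILTCk libraries, 21.6 and 53.6% of the NK1.1- ILTCk libraries, and 25.3 and 57.5% of the PD1+ Tconv libraries. The widest 95% Wilson interval among these shares, that of Wfdc18 in PD1+ Tconv replicate 2, ran from 57.2 to 57.9% and covers counting error only. In each group the 2 libraries differed by more than that for both genes, with the smallest gap for Wfdc18 in NK1.1+ ILTCk. The level of Csn3 per kilobase divided by that of Wfdc18 accordingly ranged from 0.0557 to 1.11.

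**Figure D4:**
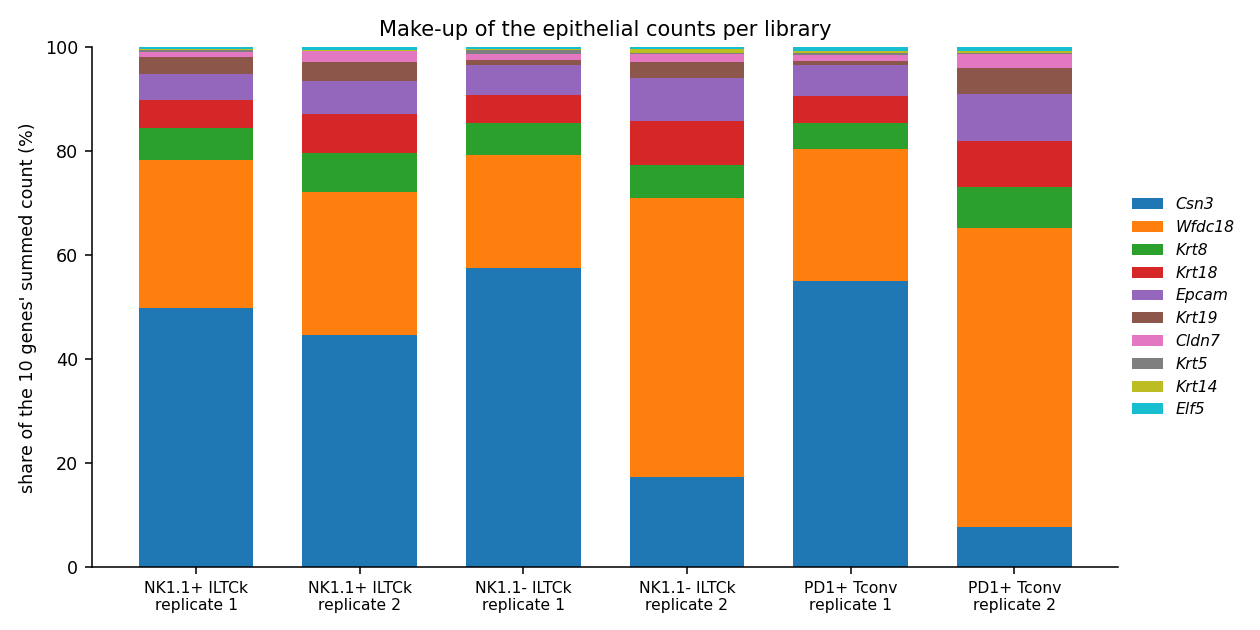
Share of each of the 10 epithelial genes in their summed counts, in percent, as stacked bars from 0 to 100 for each of the 6 retrogenic libraries. Csn3 holds 44.7 to 57.6% in 4 libraries, but 17.4% in NK1.1- ILTCk replicate 2 and 7.74% in PD1+ Tconv replicate 2, where Wfdc18 holds 53.6 and 57.5%.

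Replicate 1 and replicate 2 were also compared gene by gene. In each of the 3 groups Csn3 and Krt5 had a higher level in replicate 1 than in replicate 2, by 0.03 to 1.88 and by 1.08 to 4.75 on the log2 scale. The other 8 genes had the higher level in replicate 2 of all 3 groups. Of all 18091 genes tested, 3679 (20.3%) were higher in replicate 1 of all 3 groups and 3621 (20.0%) in replicate 2 of all 3. Of the 11 T cell markers, 8 were higher in replicate 1 of all 3 groups and 0 in replicate 2. With CPM of the total count in place of TMM, 5 of the 8 epithelial genes stayed higher in replicate 2 of all 3 groups. Krt8, Krt19 and Wfdc18 turned in 1 group each, and all 11 T cell markers were higher in replicate 1 of all 3 groups. On that scale 38.9% of all genes were higher in replicate 1 of all 3 groups and 9.28% in replicate 2. The milk list was split, with 6 of its 15 genes higher in replicate 1 of all 3 groups and 5 in replicate 2. Csn1s1, a casein, had 26.5 and 4.92 CPM in NK1.1+ ILTCk, 114 and 12.4 CPM in NK1.1- ILTCk, and 34.5 and 2.68 CPM in PD1+ Tconv. Csn2, Csn1s2a, Wap and Glycam1 were higher in replicate 1 of all 3 groups too. Fcgbp, a secreted mucin-like protein, was higher in replicate 2, with 9.16 and 972 CPM in NK1.1+ ILTCk, 6.94 and 691 CPM in NK1.1- ILTCk, and 0.573 and 321 CPM in PD1+ Tconv. The labels do not say what libraries of one replicate number share.

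**Figure D5:**
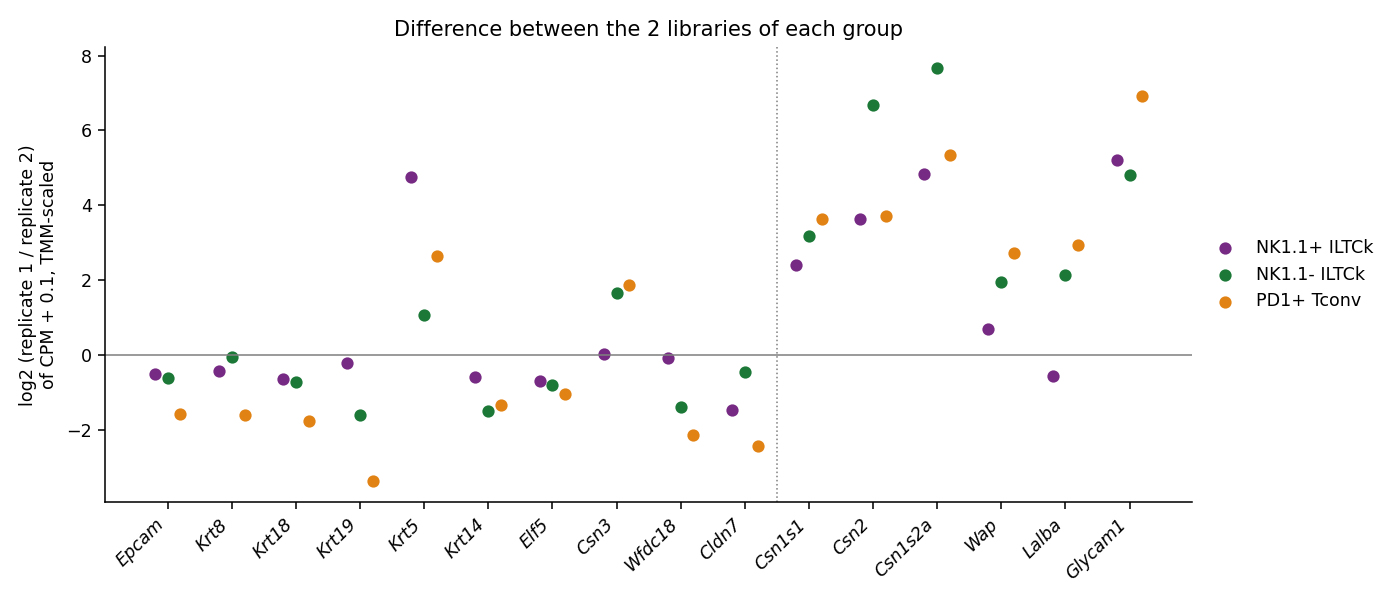
Log2 ratio of replicate 1 to replicate 2 within each group, computed from TMM-scaled CPM plus 0.1, for the 10 epithelial genes (left of the dotted line) and 6 further milk genes (right); colours mark the groups and the grey line is no difference. Krt5 and Csn3 lie above the line in all 3 groups, with the caseins, and the other 8 epithelial genes lie below it.

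Over the 6 retrogenic libraries, the log2 CPM of each gene was set against the mean of the other 9, a description over few libraries from 3 groups. Pearson's r was 0.95 for Epcam, 0.94 for Krt18, 0.94 for Krt8, 0.87 for Wfdc18 and 0.80 for Krt14. It was 0.74 for Cldn7, 0.69 for Elf5, 0.68 for Krt19, 0.31 for Csn3 and 0.13 for Krt5. The closest pair was Epcam with Krt18, at 0.99.

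Wider lists of epithelial genes, chosen with earlier results of these data known, were counted in the same fits. In NK1.1- ILTCk against PD1+ Tconv no listed gene was called by edgeR, and the counts that follow are of positive log2 fold changes and of genes whose libraries lay entirely above, as for 23.1% of all genes tested. Of 15 further luminal genes 13 were positive and 7 lay above, with a median of 1.30. Of 10 basal genes 10 and 8 did, with a median of 1.38, and of 15 milk genes 15 and 5, with a median of 1.76. Of 15 junction genes 14 were positive and 10 lay above, with a median of 1.61, and of 15 epithelial regulators and membrane proteases 15 and 14, with a median of 1.49. DESeq2 called 1 luminal, 1 basal, 2 milk, 5 junction and 4 regulator genes, all higher in NK1.1- ILTCk, against 2.16% of all genes called higher. When PD1+ Tconv replicate 2 was left out, 14 luminal, 9 basal, 15 milk, 13 junction and 15 regulator genes were positive, with medians of 1.55, 2.20, 1.54, 2.24 and 2.15. In the same order, 10, 9, 9, 12 and 15 genes lay above the lone PD1+ Tconv library, as for 41.3% of all genes.

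In NK1.1+ ILTCk against PD1+ Tconv edgeR again called no listed gene, and 20.7% of all genes tested lay entirely above. Of the 15 luminal genes 11 were positive and 5 lay above, with a median of 0.53, and of the 10 basal genes 5 were positive and 2 lay above, with a median of 0.16. Of the 15 milk genes 11 and 6 did, with a median of 1.26, of the 15 junction genes 11 and 8, with a median of 0.89, and of the 15 regulator genes 15 and 9, with a median of 0.93. DESeq2 called 3 milk, 2 junction and 1 regulator gene higher and none of the luminal or basal ones, against 3.66% of all genes called higher. With PD1+ Tconv replicate 2 left out, 12 luminal, 8 basal, 11 milk, 12 junction and 15 regulator genes were positive, with medians of 1.69, 0.72, 0.82, 1.34 and 1.79. In the same order, 9, 3, 9, 11 and 15 genes lay above the lone PD1+ Tconv library, as for 38.5% of all genes.

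Cldn8, a claudin of tight junctions, had 24.7 and 48.1 CPM in NK1.1+ ILTCk, 45.2 and 83.8 CPM in NK1.1- ILTCk, and 5.89 and 12.9 CPM in PD1+ Tconv. Lcn2, an iron-siderophore carrier also made by neutrophils, had 2919 and 3669 CPM in NK1.1+ ILTCk, 4387 and 4773 CPM in NK1.1- ILTCk, and 841 and 1491 CPM in PD1+ Tconv. Cdh1, the epithelial cadherin, overlapped PD1+ Tconv in both ILTCk groups and was lower in both NK1.1+ ILTCk libraries than in NK1.1- ILTCk, with 181 and 166 CPM in NK1.1+ ILTCk, 199 and 199 CPM in NK1.1- ILTCk, and 219 and 118 CPM in PD1+ Tconv.

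Of the wider epithelial lists, the basal and contractile genes had the lowest median between the ILTCk groups, and the stromal markers had a similar one. In NK1.1+ ILTCk against NK1.1- ILTCk, 9 of the 10 basal genes were negative and 8 lay below, as for 18.9% of all genes tested, with a median log2 fold change of -1.66 and no call by edgeR or DESeq2. Acta2, the smooth muscle actin of myoepithelial cells and of stromal cells, had 173 and 49.4 CPM in NK1.1+ ILTCk, 474 and 462 CPM in NK1.1- ILTCk, and 38.5 and 304 CPM in PD1+ Tconv. Oxtr, the receptor through which oxytocin contracts these cells, had 10.0 and 1.44 CPM in NK1.1+ ILTCk, 24.6 and 16.5 CPM in NK1.1- ILTCk, and 3.44 and 1.38 CPM in PD1+ Tconv. The 8 stromal markers summed to 65.6 and 16.3 CPM in NK1.1+ ILTCk and to 161 and 119 CPM in NK1.1- ILTCk. In this comparison 8 of the 8 were negative and 4 lay below, against the same 18.9%, with a median of -1.58. DESeq2 called 1 of them lower, against 0.315% of all genes called in either direction. The part of stromal cells in the values of Acta2 and of the other basal genes was not tested. The junction list was negative for 15 of 15 genes, with 9 below against the same 18.9%, and a median of -0.60. Of the 15 luminal genes 11 were negative and 3 lay below, with a median of -0.54. Of the 15 milk genes 11 were negative and 1 lay below, with a median of -0.67. Of the 15 regulator genes 14 were negative and 6 lay below, with a median of -0.40.

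In the thymic libraries most of the epithelial genes were at the edge of detection. Krt19, Krt5 and Elf5 had 0 counts in all 4, where 3 counts would stand for 0.0919 to 0.118 CPM. Krt14, Csn3, Wfdc18 and Cldn7 had 5, 11, 16 and 9 counts over the 4 libraries together, and 15 of the 16 Wfdc18 counts came from CD8SP replicate 2. Epcam and Krt18 were the 2 of the 10 genes that passed the filter on low counts, and neither was called by edgeR, against 4.71% of 14634 genes tested.

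Epcam had 53 and 221 counts in ILTCkP and 12 and 22 counts in CD8SP, or 2.09 and 6.77 CPM against 0.414 and 0.696 CPM. Both ILTCkP libraries lay above both CD8SP libraries, as for 28.8% of all genes tested. The log2 fold change was 2.99 ± 0.80, with an edgeR adjusted p of 0.103 and a DESeq2 adjusted p of 0.00819, DESeq2 calling 13.6% of all genes. Without ILTCkP replicate 2, which held most of the counts, it was 1.90, with an edgeR adjusted p of 0.0686. Markers of thymic epithelium, which also carries Epcam, summed to 89.4 and 89.6 CPM in ILTCkP and to 92.6 and 85.2 CPM in CD8SP over 8 genes, 2 or 3 of which were at 0 in each library. Most of the sum was Ly75, Ctsl and Ccl25. Foxn1, the regulator that defines these cells, was at 0 in both ILTCkP libraries and had 0 and 0.127 CPM in CD8SP. Aire, which marks the medullary ones, had 1.18 and 0.552 CPM in ILTCkP and 0.0689 and 0 CPM in CD8SP, and Psmb11, which marks the cortical ones, had 1.02 and 0.245 CPM in ILTCkP and 0.0345 and 0 CPM in CD8SP. Both were thus higher in the 2 ILTCkP libraries than in CD8SP, as Epcam was. They rested on few counts, 48 for Aire and 34 for Psmb11 over the ILTCkP libraries together. Within ILTCkP, Aire and Psmb11 had their higher level in replicate 1 and Epcam in replicate 2. Ly75 was lower in ILTCkP, with 34.5 to 43.5 CPM against 46.3 to 47.4 CPM in CD8SP. Prss16 overlapped, with 0.215 to 1.46 CPM in ILTCkP and 0.724 to 1.80 CPM in CD8SP. The part of thymic epithelium in the Epcam values was not tested.

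The keratin pair did not run together in the thymus. Krt8 had 38 and 6 counts in ILTCkP and none in the 2 CD8SP libraries. With 3 counts set over the CD8SP group, its level was at least 15.3-fold higher in ILTCkP. Most of these counts, 38 of 44, came from ILTCkP replicate 1, and from replicate 2 alone the level was at least 3.72-fold higher. Krt18 had 9 and 2 counts in ILTCkP and 51 and 18 counts in CD8SP, a log2 fold change of -2.49 ± 1.15 with an edgeR adjusted p of 0.275, and both ILTCkP libraries lay below both CD8SP libraries, as for 29.3% of all genes.

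Several genes of the wider epithelial lists were expressed in the thymus at 5 CPM or more in some library, 4 of 15 luminal, 0 of 10 basal, 4 of 15 milk, 3 of 15 junction and 6 of 15 regulator genes. Of the 70 listed genes 26 passed the filter on low counts. EdgeR called 6 of these 26 higher in ILTCkP and 0 lower, against 3.38% of all genes tested called higher. Kit, the stem cell factor receptor of luminal progenitors and of blood progenitors, had 206 and 292 CPM in ILTCkP and 12.9 and 16.3 CPM in CD8SP, a log2 fold change of 4.09 ± 0.31 with an adjusted p of 0.00577. Xdh, a purine-degrading enzyme that also coats milk fat globules, had 361 and 290.5 CPM in ILTCkP and 19.0 and 21.8 CPM in CD8SP, a change of 4.00 ± 0.26 with an edgeR adjusted p of 0.00378. Esrp2, a splicing regulator of epithelia, had 51.7 and 83.5 CPM in ILTCkP and 2.45 and 2.88 CPM in CD8SP, and its paralog Esrp1 had 5.4 and 4.66 CPM in ILTCkP and 0 CPM in both CD8SP libraries. Mfge8, a milk fat globule protein, had 277 and 158 CPM in ILTCkP and 54.3 and 51.1 CPM in CD8SP. St14, the membrane protease matriptase, had 14.2 and 13.0 CPM in ILTCkP and 2.31 and 1.49 CPM in CD8SP.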

How the data were processed

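The values were whole-number read counts per gene, which the authors deposited in 2 tables, one for the thymic and one for the retrogenic libraries. Per the submitters' processing notes the build was mm10 and DESeq was used, with no version given; the aligner, counting program and annotation stand in none of the sources used here. The 10 genes and the wider lists were chosen with earlier results of these data known. Each table was fitted separately: filterByExpr, TMM scaling and edgeR 4.0.16's quasi-likelihood test with robust estimation in R 4.3.3, p-values adjusted over all genes tested by Benjamini-Hochberg and a gene called under 0.05. The retrogenic comparisons drew their spread from all 6 libraries. Alternatives were RLE scaling, DESeq2 1.42.0, no filter, the replicate number as a block, the 4 compared libraries alone and each library left out; the list counts without PD1+ Tconv replicate 2 were added after seeing the data. Gene lengths came from GENCODE M21 principal transcripts and promoters from RefSeq. Named were the 10 genes, up to 5 of each wider list with the highest level and up to 4 with the smallest p, and the 12 genes most like the 10; Foxn1, Aire, Psmb11, Ly75, Ctsl, Ccl25, Esrp2, Csn1s1, Csn2, Csn1s2a and Glycam1 were named after their values were seen. Library totals give the counting precision; intervals cover counting error only. One gene that the rule names is not reported here.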

Additional observations from a re-analysis of the deposited data

How the results depend on the processing

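Of the log2 fold changes of single epithelial genes under the alternatives, 324 kept their direction and side of the threshold, 16 changed sign and 6 passed the threshold. The calls of edgeR rest on the settings. In ILTCkP against CD8SP, 689 genes were called, against 1997 by DESeq2, 2535 with no filter and 592 to 7017 with a library left out; of the epithelial genes 0 were called, against 1, 2 and 0 to 1. Epcam was called by DESeq2 and with no filter, and its log2 fold change was 3.60 without ILTCkP replicate 1. Krt8, which the filter removed from the main test, was called with no filter, with 38 of its 44 counts in ILTCkP replicate 1. It also entered the test without ILTCkP replicate 2, where its counts came from replicate 1 alone. In NK1.1- ILTCk against PD1+ Tconv, 0 genes were called, against 707 by DESeq2 and 799 with no filter, where 1 epithelial gene, Csn3, was called. In NK1.1+ ILTCk against PD1+ Tconv, 0 were called, against 1268 by DESeq2, 1249 with no filter (1 epithelial gene, Csn3) and 0 to 35 with a library left out, 35 without NK1.1+ ILTCk replicate 1. In NK1.1+ ILTCk against NK1.1- ILTCk, 0 were called, against 57 by DESeq2 and 167 with no filter.

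With the replicate number as a block, the counts were 2212 in ILTCkP against CD8SP, with 1 epithelial gene (Epcam, 2.82), 298 in NK1.1- ILTCk against PD1+ Tconv, 755 in NK1.1+ ILTCk against PD1+ Tconv, and Csn3 turned to 0.14 in NK1.1+ ILTCk against NK1.1- ILTCk. The labels do not state what libraries of one number share, so no pairing was assumed; deviations from group means correlated at 0.36, 0.32 and 0.34 between the retrogenic groups and at 0.09 between the thymic ones, over 2 numbers.

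With a library left out, the lone library of a group is assumed to vary like the others. In NK1.1- ILTCk against PD1+ Tconv Krt19 then ranged from -0.12 to 3.31. In NK1.1+ ILTCk against PD1+ Tconv the ranges were -2.58 to 3.26 for Krt5, -0.44 to 0.85 for Krt14, -0.18 to 0.80 for Elf5, -0.33 to 1.76 for Wfdc18 and -0.30 to 2.23 for Cldn7. Between NK1.1+ ILTCk and NK1.1- ILTCk they were -0.35 to 1.20 for Krt19, -0.83 to 0.87 for Csn3, -0.62 to 0.18 for Elf5 and -1.23 to 0.23 for Cldn7. The epithelial genes entirely above PD1+ Tconv were 10 in NK1.1- ILTCk without PD1+ Tconv replicate 2, against 6 with it, and 9 against 3 in NK1.1+ ILTCk. The summed level without Csn3 was 4696 CPM in NK1.1+ ILTCk, whose libraries then overlapped those of PD1+ Tconv, and 8098 CPM in NK1.1- ILTCk. With Csn3 kept, so over all 10 genes, it was 14113 CPM in NK1.1- ILTCk on the scale of CPM of the total count, against 12875 CPM with TMM. NK1.1- ILTCk replicate 1 had a TMM factor of 1.21, which lowered its levels against that scale. The cause of the differences between libraries was not tested.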

Other observations

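Outside the lists, the genes whose log2 CPM followed the mean of the 10 epithelial genes most closely over the 6 retrogenic libraries were Nars, Slc5a8, Dstn, Atp6v1e1, Creb5, Deptor, Cnn3, Ttpa, Plxdc2, Cp, Pgk1 and Sept10, with Pearson's r from 0.99 to 1.00 among 10654 candidates, of which 339 were above 0.9. Slc5a8, a monocarboxylate transporter, had 73.5 and 63.5 CPM in NK1.1+ ILTCk, 121 and 164 CPM in NK1.1- ILTCk, and 18.5 and 41.1 CPM in PD1+ Tconv. Cp, the copper carrier ceruloplasmin, had 171 and 197 CPM in NK1.1+ ILTCk, 230.1 and 531 CPM in NK1.1- ILTCk, and 35.0 and 103 CPM in PD1+ Tconv. Deptor, an inhibitor of mTOR, had 104 and 107 CPM in NK1.1+ ILTCk, 169 and 199.6 CPM in NK1.1- ILTCk, and 41.5 and 71.1 CPM in PD1+ Tconv. These genes were chosen for following the 10, so that their groups lie in the order of the summed epithelial level comes from the choice.

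Milk genes of the wider list did not move as one. Mfge8 had 128 and 842 CPM in NK1.1+ ILTCk, 295 and 889 CPM in NK1.1- ILTCk, and 53.2 and 353 CPM in PD1+ Tconv. Ltf, lactoferrin, had 736 and 137 CPM in NK1.1+ ILTCk, 554 and 149 CPM in NK1.1- ILTCk, and 47.1 and 50.7 CPM in PD1+ Tconv, so that its lowest ILTCk library lay above both PD1+ Tconv libraries while Mfge8 overlapped.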
